A study of Danio rerio with 2 samples.

Results

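The sarcomeric actins and α-actinins of zebrafish heart were followed in 2 RNA-seq libraries of 72-hpf hearts. The 8 genes were chosen by name from the 33396 genes listed: the actins *actc1a*, *actc1b*, *actc1c*, *acta1a* and *acta1b* and the α-actinins *actn2b*, *actn3a* and *actn3b*. The choice was made with earlier results of these data known, so the values below are a description and carry no test. One library came from embryos recorded as homozygous for *smyd4* L544Efs*1, a frameshift allele made with CRISPR/Cas9. The other came from embryos recorded as wild type. The records give the strain of both as Tu, whereas the methods describe a cardiomyocyte GFP reporter, driven by the promoter of a cardiac myosin light chain, in the mutant line and in the controls. The fluorescence guided the dissection. The mutant embryos are described as maternal and zygotic mutants, and the hearts of many embryos were pooled into each library.

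Actin is the protein of the thin filament, along which myosin heads pull when muscle contracts. Vertebrates have separate genes for cardiac and skeletal α-actin, and larval zebrafish muscle and heart use several of these copies. α-actinin is the crosslinker of the Z-disc, where it ties together thin filaments of opposite direction from neighbouring sarcomeres. In mammals ACTN2 is the α-actinin of the heart and of slow and fast skeletal fibers, and ACTN3 is found in fast skeletal fibers.

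Each group was a single library, so the spread between replicates is unknown and no p-value is given. *smyd4* itself stood at 2.42 FPKM in the library labelled mutant and at 2.42 FPKM in the wild-type library (106 recovered reads labelled mutant and 111 wild type). The ratio was 1.00 as deposited (exact 95% interval 0.760 to 1.32) and 0.7001 (0.531 to 0.922) after TMM scaling, which sets a trimmed mean of the log ratios to 0. The study reports a complete loss of the *smyd4* transcript in mutant embryos by qRT-PCR and in situ hybridization, which these libraries do not show. Its figure legend calls the qRT-PCR result a significant decrease. Those assays were made on embryos and the libraries on dissected hearts, where *smyd4* was low, so the measures are not alike. As the deposited level was no lower, the name "library labelled mutant" is used throughout, and each direction rests on that label. FPKM are reads corrected for how long a gene is and for how deeply a library was sequenced. The read totals, worked out from the values, were 17960132 reads for the library labelled mutant and 18840114 for wild type. All differences are on the scale of log2(FPKM + 1), mutant minus wild type, a scale that understates changes at low values. Genes under 1 FPKM in both libraries were left out, and the remaining, tested genes were called higher or lower past a difference of 1 in that direction. The median difference of all 17800 tested genes was 0.49, so a gene at 0.49 moved with the bulk of the table. In bulk tissue, fewer cells of a type and less RNA per cell cannot be told apart.

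All 8 genes passed the filter on low values. In the library labelled mutant, 3 of them were higher (*actc1c*, *actn2b* and *actn3a*), 2 were lower (*actc1a* and *actc1b*) and 3 differed by less than the threshold. The same rule called 33.3% of all tested genes higher and 11.6% lower. The median difference of the 8 genes was 0.29, against 0.49 for all tested genes. It turned negative with upper-quartile (-0.43), median-of-ratios (-0.22) and TMM scaling (-0.22). The median of all tested genes was then -0.15, 0.04 and 0.04. Each scaling applies 1 factor to all genes, so the turn reflects a shift of the whole table. The median of the 8 genes was below that of all tested genes in each case. The median of the 8 genes hides opposite movements. The difference of the actins had a median of -0.67 and that of the α-actinins a median of 1.34. Neither family moved as a whole, since *actc1c* (4.17) and *acta1a* (0.77) were above wild type and *actn3b* (-0.20) was below it.

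**Figure D1:**
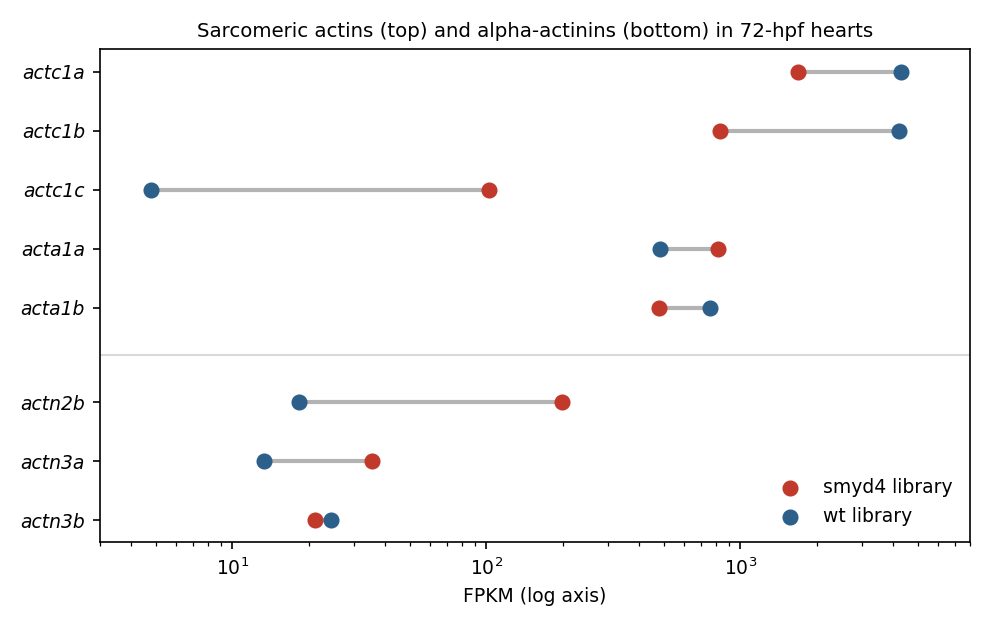
FPKM (log axis) of each gene in the library labelled mutant (red, marked smyd4) and in the wild-type library (blue), 1 point per library, with the actins above and the α-actinins below. The red point lies far to the right for *actc1c* and *actn2b* and to the left for *actc1a* and *actc1b*.

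*actc1a*, named as a cardiac α-actin, was the most abundant of the 5 actins in both libraries. It stood at 1685 FPKM in the library labelled mutant and at 4275 FPKM in wild type (39595 recovered reads labelled mutant and 105357 wild type). Its log2 difference was -1.34, and the ratio of mutant to wild type was 0.394 (0.390 to 0.399, the exact 95% interval by Clopper-Pearson). These intervals cover counting error only, not the variation between embryos or dissections. *actc1a* still ranked 36th among all genes in the library labelled mutant, against 24th in wild type, so both libraries held it among their most abundant transcripts.

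*actc1b* is named as another cardiac α-actin, although RefSeq lists *acta1* as an older name. It was at 831.0 FPKM in the library labelled mutant and at 4221 FPKM in wild type. With a log2 difference of -2.34 and a ratio of 0.197 (interval 0.192 to 0.202), it was the lowest of the 5 actins relative to wild type. Its recovered reads may be a fraction of the true number, and the interval is then too wide. In wild type *actc1b* was nearly as abundant as *actc1a*, at 0.987 times its FPKM. In the library labelled mutant it reached 0.493 times.

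*actc1c* moved the other way. It was at 103 FPKM in the library labelled mutant and at 4.77 FPKM in wild type (1934 recovered reads labelled mutant and 94 wild type), a log2 difference of 4.17. The ratio of 21.6 had an interval from 17.5 to 26.8, the widest among the 8 genes because of the few wild-type reads. Even in the library labelled mutant it remained a minor actin, at 0.0610 times the FPKM of *actc1a*. The identity of this gene rests on its Ensembl identifier, ENSDARG00000076126. RefSeq gives *actc1c* as an older name of *acte1*, and the deposited table holds a separate identifier for *acte1*, ENSDARG00000079111. That identifier was not among the 8 genes and went in the opposite direction, at 5.99 FPKM in the library labelled mutant and 38.4 FPKM in wild type. A further identifier with the bare symbol *actc1*, ENSDARG00000057911, was at 82.6 FPKM in the library labelled mutant and 54.7 FPKM in wild type, a log2 difference of 0.58.

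In the table of gene names *acta1* stands for 2 identifiers, and the suffix of each was taken from zebrafish Ensembl naming. *acta1a* (ENSDARG00000036371), named as a skeletal α-actin, was at 818.8 FPKM in the library labelled mutant and at 481.0 FPKM in wild type. *acta1b* (ENSDARG00000055618) was at 476.6 FPKM in the library labelled mutant and at 757.4 FPKM in wild type. RefSeq lists *actc1* and *cfk* among the older names of *acta1b*, so the names of these copies do not by themselves separate cardiac from skeletal actin. Neither gene passed the threshold: the log2 difference was 0.77 for *acta1a* and -0.67 for *acta1b*. Counting error was small beside these values, as the ratio was 1.70 (interval 1.66 to 1.75) for *acta1a* and 0.629 (0.616 to 0.643) for *acta1b*. Actin copies are close in sequence and the counting rule is not known, so part of the reads of one may stand under another. The order of the pair was reversed between the libraries. *acta1a* had 1.72 times the FPKM of *acta1b* in the library labelled mutant and 0.635 times in wild type, a ratio within a library that does not depend on scaling between libraries.

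Added together, the 5 actins came to 3915 FPKM in the library labelled mutant and 9739 FPKM in wild type, a ratio of 0.402. By recovered reads they held 0.429% of all reads in the library labelled mutant and 0.909% in wild type. Both values are too low if the recovered reads of *actc1b* are a fraction of the true number. The composition of the pool also differed. *actc1a* had almost the same share of the summed FPKM in both, 43.1% in the library labelled mutant and 43.9% in wild type. Its share of the recovered reads was 51.4% in the library labelled mutant and 61.5% in wild type. These read shares depend on the reads of *actc1b*, which may be a fraction of the true number, so their difference cannot be relied on. Of the summed FPKM, *actc1b* made up 21.2% in the library labelled mutant against 43.3% in wild type. The largest gain in share was that of *acta1a*, with 20.9% in the library labelled mutant and 4.94% in wild type. A share also rises when the sum falls, and the ratio of *acta1a* itself was 1.70, short of the threshold. *acta1b* held 12.2% in the library labelled mutant and 7.78% in wild type, and *actc1c* held 2.63% in the library labelled mutant and 0.0489% in wild type. Counting *acte1* and the bare *actc1* identifier as part of the pool, an alternative chosen after the values had been seen, left each share within 1 percentage point.

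The α-actinins are longer transcripts of lower abundance. *actn2b*, related to the cardiac α-actinin of mammals, was at 198.2 FPKM in the library labelled mutant and at 18.3 FPKM in wild type (9711 recovered reads labelled mutant and 942 wild type). Its log2 difference of 3.37 and its ratio of 10.8 (interval 10.1 to 11.6) were the second largest of the 8 genes. It ranked 555th among all genes in the library labelled mutant and 3654th in wild type.

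*actn3a* and *actn3b* are named as the copies related to mammalian ACTN3, although RefSeq lists ACTN2 among the older names of *actn3a*. *actn3a* was at 35.5 FPKM in the library labelled mutant and at 13.4 FPKM in wild type, a log2 difference of 1.34 and a ratio of 2.65 (interval 2.45 to 2.88). *actn3b* was at 21.2 FPKM in the library labelled mutant and at 24.4 FPKM in wild type, with a log2 difference of -0.20 and a ratio of 0.868 (interval 0.797 to 0.945). The pair therefore changed places. *actn3a* had 1.67 times the FPKM of *actn3b* in the library labelled mutant and 0.548 times in wild type.

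The 3 α-actinins together came to 254.9 FPKM in the library labelled mutant and 56.1 FPKM in wild type, a ratio of 4.54. A further copy, *actn2a*, had no match by name, so this sum and its shares lack it. *actn2b* made up 77.8% of this sum in the library labelled mutant and 32.7% in wild type. *actn3b* was the leading copy in wild type, with 43.5%, and the smallest in the library labelled mutant, with 8.31%. *actn3a* held 13.9% in the library labelled mutant and 23.8% in wild type. The actin sum was 15.4 times the α-actinin sum in the library labelled mutant and 173.6 times in wild type.

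**Figure D2:**
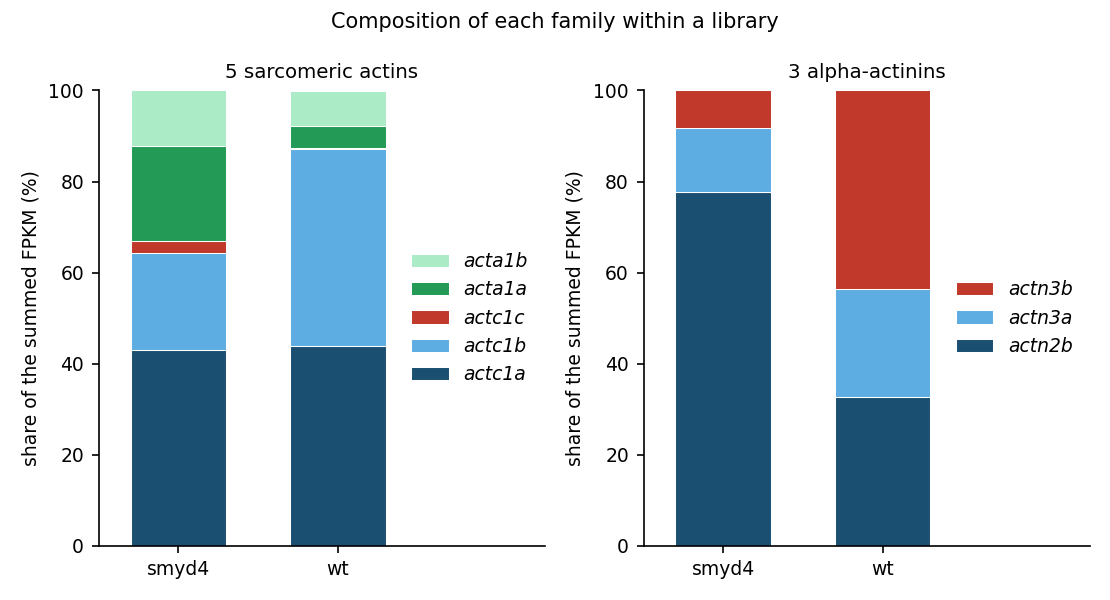
Share (%) of each gene in the summed FPKM of its family, with the library labelled mutant on the left (smyd4) and wild type on the right (wt). *acta1a* takes 20.9% of the actin sum in the library labelled mutant against 4.94% in wild type, *actn2b* takes 77.8% of the α-actinin sum against 32.7%, and the wild-type share of *actc1c* (0.0489%) is too thin to see.

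The scaling of the libraries decided which of the smaller differences passed the threshold. TMM scaling brought the median of all genes to 0.04, and the counts became 2 higher and 3 lower genes, where 21.2% of all tested genes were higher and 19.3% lower. *actn3a* was then no longer past the threshold (0.85) and *acta1b* passed it (-1.18), with the same outcome under median-of-ratios and upper-quartile scaling. *actc1c* and *actn2b* were higher and *actc1a* and *actc1b* lower under each of the 4 other scalings. *actn3b* changed sign, to 0.01, when each library was rescaled to the same sum of FPKM. Shares and ratios within a library are free of this choice.

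**Figure D3:**
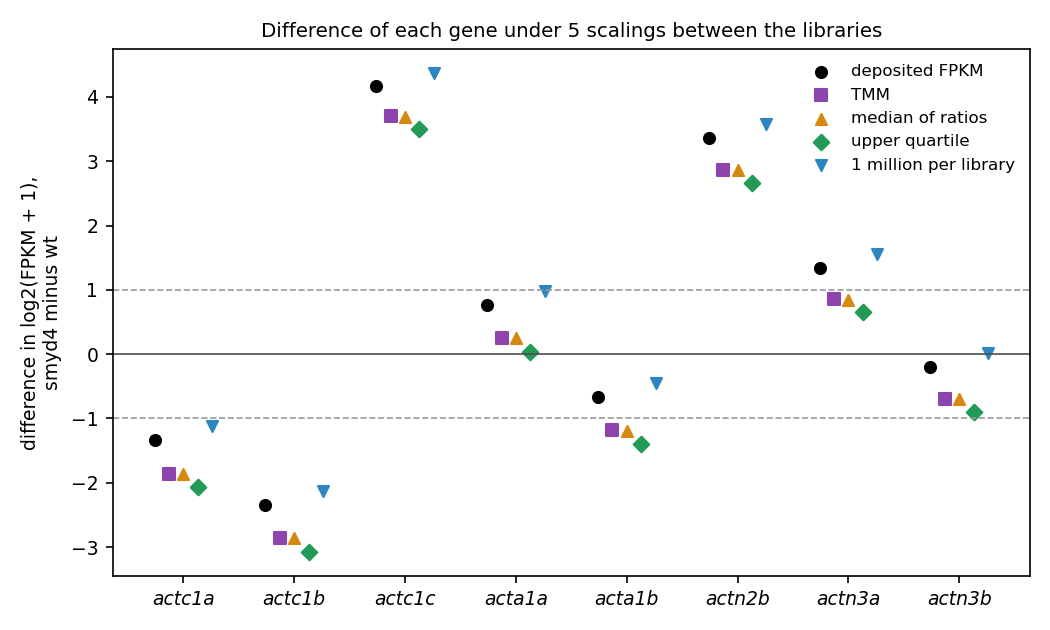
Difference in log2(FPKM + 1), library labelled mutant (smyd4) minus wild type (wt), of each gene under the deposited FPKM and 4 other scalings, with dashed lines at the threshold of 1 in either direction. The points of *actc1a*, *actc1b*, *actc1c* and *actn2b* stay outside the dashed lines under all 5, while those of *acta1b* and *actn3a* cross a line.

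Markers of heart and of fast skeletal muscle differed along with these genes, beside 33.3% of all tested genes called higher and 11.6% lower. Of 13 tested cardiomyocyte markers, the library labelled mutant had 7 higher and 0 lower, with a median difference of 1.37 (6 higher and 1 lower of 14 under TMM scaling), and the list summed to 4861 FPKM in the library labelled mutant and 1311 FPKM in wild type. The examples with the largest differences were *nppa*, *myl7* and *myl4*. *nppa*, a natriuretic peptide of heart muscle, was at 776.4 FPKM in the library labelled mutant and 134.9 FPKM in wild type. *myl7*, the cardiac myosin light chain, was at 2977 FPKM labelled mutant and 642.0 FPKM wild type, and *myl4* at 33.5 FPKM labelled mutant and 6.46 FPKM wild type. Below wild type, though short of the threshold, were *atp2a2a* (90.7 FPKM labelled mutant and 128.5 FPKM wild type), *nppb* (121.6 FPKM labelled mutant and 138.2 FPKM wild type) and *myh6* (28.4 FPKM labelled mutant and 30.7 FPKM wild type). Of the 14 names listed for cardiomyocytes, 2 had no match (*vmhc* and *vmhcl*), so the cardiomyocyte sum lacks them. Among 26 tested fast skeletal muscle markers, 4 were higher and 7 lower, at a median of -0.26 (2 higher and 11 lower under TMM scaling), and none was at 0 in either library. Their sum was 5035 FPKM in the library labelled mutant and 12552 FPKM in wild type. The wild-type library thus held more FPKM of the matched fast skeletal than of the matched cardiomyocyte markers. Of the 28 names listed for fast skeletal muscle, 2 had no match (*mylpfa* and *mylpfb*), so neither sum is complete. The parvalbumins *pvalb4* (79.7 FPKM in the library labelled mutant and 431.9 FPKM in wild type) and *pvalb1* (138 FPKM labelled mutant and 717.0 FPKM wild type), calcium buffers of fast fibers, were lower, whereas the fast myosin *myhz2* (118 FPKM labelled mutant and 17.0 FPKM wild type) was higher. How much of any actin or α-actinin difference came from skeletal muscle RNA in the libraries was not tested.

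The actin sum kept nearly the same ratio to the sum of the matched fast skeletal markers, and not to that of the matched cardiomyocyte markers. It was 0.778 times the sum of fast skeletal markers in the library labelled mutant and 0.776 times in wild type. Relative to the cardiomyocyte markers it was 0.805 times in the library labelled mutant and 7.43 times in wild type. The near-equal ratio to fast skeletal markers rests on summing, in which the abundant markers weigh most. Taken marker by marker, the median log2 change of that ratio was -0.91, while that of the ratio to cardiomyocyte markers was -3.04. The single genes differed here too. *actc1a* was 33.5% of the fast skeletal sum in the library labelled mutant and 34.1% in wild type, while *actc1b* was 16.5% in the library labelled mutant and 33.6% in wild type. *acta1a* was 16.3% in the library labelled mutant and 3.83% in wild type.

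The α-actinin sum stayed closer to the cardiomyocyte sum. It was 0.0524 times the cardiomyocyte sum in the library labelled mutant and 0.0428 times in wild type, against 0.0506 times the fast skeletal sum in the library labelled mutant and 0.0045 times in wild type. The log2 change of the ratio to the cardiomyocyte sum was 0.29. It was 0.69 without *myl7*, and the median taken marker by marker was 0.46. *actn2b* alone was 4.08% of the cardiomyocyte sum in the library labelled mutant and 1.40% in wild type, so its difference was larger than that of these markers summed. *actn3a* was 0.73% of that sum in the library labelled mutant and 1.02% in wild type. *actn3b* was 0.436% of it in the library labelled mutant and 1.86% in wild type. The ratio of the α-actinin sum thus joins opposite movements of single genes.

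Among the slow skeletal markers, 3 of 8 tested genes were higher and 1 was lower (3 and 2 under TMM scaling). Over all tested genes 33.3% were higher and 11.6% lower. The slow skeletal sum was 730.8 FPKM in the library labelled mutant and 598.6 FPKM in wild type. *tnni1* (ENSDARG00000052708), 1 of the 3 higher genes, was at 381.5 FPKM in the library labelled mutant and 99.4 FPKM in wild type. It was matched without a paralog suffix, and the cardiomyocyte list also holds it. The higher slow skeletal sum in the library labelled mutant rests on this gene. Both *ryr1* identifiers of the slow skeletal list stand in the fast skeletal list too. *tnnc1* (ENSDARG00000037539) was at 117 FPKM in the library labelled mutant and 39.3 FPKM in wild type. *myl13* was lower, at 143 FPKM in the library labelled mutant and 331.9 FPKM in wild type. Of 7 tested smooth muscle markers 2 were higher and 2 lower (1 and 2 under TMM scaling), with *tagln* copies in both directions. ENSDARG00000045408 was at 5.45 FPKM in the library labelled mutant and 86.4 FPKM in wild type, and ENSDARG00000033466 was at 180.0 FPKM in the library labelled mutant and 38.2 FPKM in wild type. Markers of other tissues were present as well. Their sums were 25541 FPKM labelled mutant against 17984 FPKM wild type for epidermis, 8048 FPKM labelled mutant against 34360 FPKM wild type for liver and yolk, 2365 FPKM labelled mutant against 3084 FPKM wild type for erythrocytes, 162 FPKM labelled mutant against 103 FPKM wild type for endothelium, 140 FPKM labelled mutant against 230.3 FPKM wild type for neural tissue, 78.4 FPKM labelled mutant against 2.65 FPKM wild type for lens and 6.39 FPKM labelled mutant against 127 FPKM wild type for exocrine pancreas. In such sums the abundant genes weigh most. Of 8 tested erythrocyte markers 4 were higher and 0 lower (2 and 2 under TMM scaling). Most of their sum was *hbae3*, at 2100 FPKM labelled mutant and 2958 FPKM wild type. Of 9 tested epidermis markers 4 were higher and 1 lower (0 and 1 under TMM scaling). The most abundant was *krt4*, at 16552 FPKM labelled mutant and 8063 FPKM wild type. In wild type 5 of 9 lens markers were at 0, and in the library labelled mutant 3 of 9 pancreas markers were. The part of these tissues in the differences was not tested.

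One cytoplasmic actin, *actb2*, and the smooth muscle actin *acta2* were lower as well. A list of other actins and non-muscle α-actinins held 5 tested genes, with 0 higher and 2 lower (3 lower under TMM scaling). Among all tested genes 33.3% were higher and 11.6% lower (21.2% and 19.3% under TMM scaling). Of the 8 names listed, 3 had no match (*actg1*, *actg2* and *actn2a*). *actb2*, a cytoplasmic β-actin, was at 3877 FPKM in the library labelled mutant and 9354 FPKM in wild type, and the other β-actin, *actb1*, was at 5164 FPKM in the library labelled mutant and 8905 FPKM in wild type (log2 difference -0.79, short of the threshold). *acta2*, the smooth muscle α-actin, was at 48.9 FPKM in the library labelled mutant and 127.7 FPKM in wild type. The α-actinins of non-muscle cells, *actn1* and *actn4*, differed by 0.60 and 0.27 on the log2 scale and did not pass the threshold. *actb1* alone exceeded the sum of the 5 sarcomeric actins in the library labelled mutant, at 5164 against 3915 FPKM, and stood below it in wild type, at 8905 against 9739 FPKM.

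Z-disc proteins bind α-actinin or lie next to it. In this list of 32 tested genes, 10 were higher and 4 lower (6 and 5 under TMM scaling). Of all tested genes, 33.3% were higher and 11.6% lower. The list median was 0.52, near the value over all genes. With upper-quartile scaling it was -0.11, where the median of all tested genes was -0.15. Among the genes reaching 10 FPKM, the differences were largest for the LIM proteins *fhl1* (ENSDARG00000056653, 72.9 FPKM in the library labelled mutant and 10.2 FPKM in wild type, and ENSDARG00000071498, 129 FPKM labelled mutant and 28.9 FPKM wild type) and for *myoz2* (ENSDARG00000037266, 66.1 FPKM labelled mutant and 13.9 FPKM wild type), a myozenin that binds α-actinin in mammals. Another LIM gene, *fhl2* (ENSDARG00000003991), was the lowest of the list, at 1.89 FPKM in the library labelled mutant and 8.06 FPKM in wild type, while its copy ENSDARG00000042018 was higher, at 266.7 FPKM in the library labelled mutant and 89.3 FPKM in wild type. The *myoz2* copies diverged, as ENSDARG00000012311 was at 1.11 FPKM in the library labelled mutant and 3.79 FPKM in wild type. The capping protein subunits, which close the thin filament end at the Z-disc, diverged also, with *capza1a* at 520.1 FPKM in the library labelled mutant and 208.3 FPKM in wild type and *capzb* at 290.0 FPKM in the library labelled mutant and 665.8 FPKM in wild type.

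Factors of thin filament length and actin assembly came next. The list held 14 higher and 2 lower genes among 26 tested, at a median of 1.23 (10 and 2 genes under TMM scaling, median 0.73). Beside them, 33.3% of all tested genes were higher and 11.6% lower (21.2% and 19.3% under TMM scaling). *gsn* (ENSDARG00000045262), which severs and caps actin filaments, was at 397.3 FPKM in the library labelled mutant and 31.1 FPKM in wild type, and the related *scinla* was at 222.5 FPKM in the library labelled mutant and 31.3 FPKM in wild type. *klhl40* (ENSDARG00000039052), whose mammalian protein stabilizes thin filament proteins, was at 26.7 FPKM in the library labelled mutant and 1.95 FPKM in wild type. The pointed-end cap *tmod1* was at 15.99 FPKM in the library labelled mutant and 1.74 FPKM in wild type. The most abundant gene of this list went the other way, as the actin monomer binder *pfn1* was at 4845 FPKM in the library labelled mutant and 16739 FPKM in wild type.

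**Figure D4:**
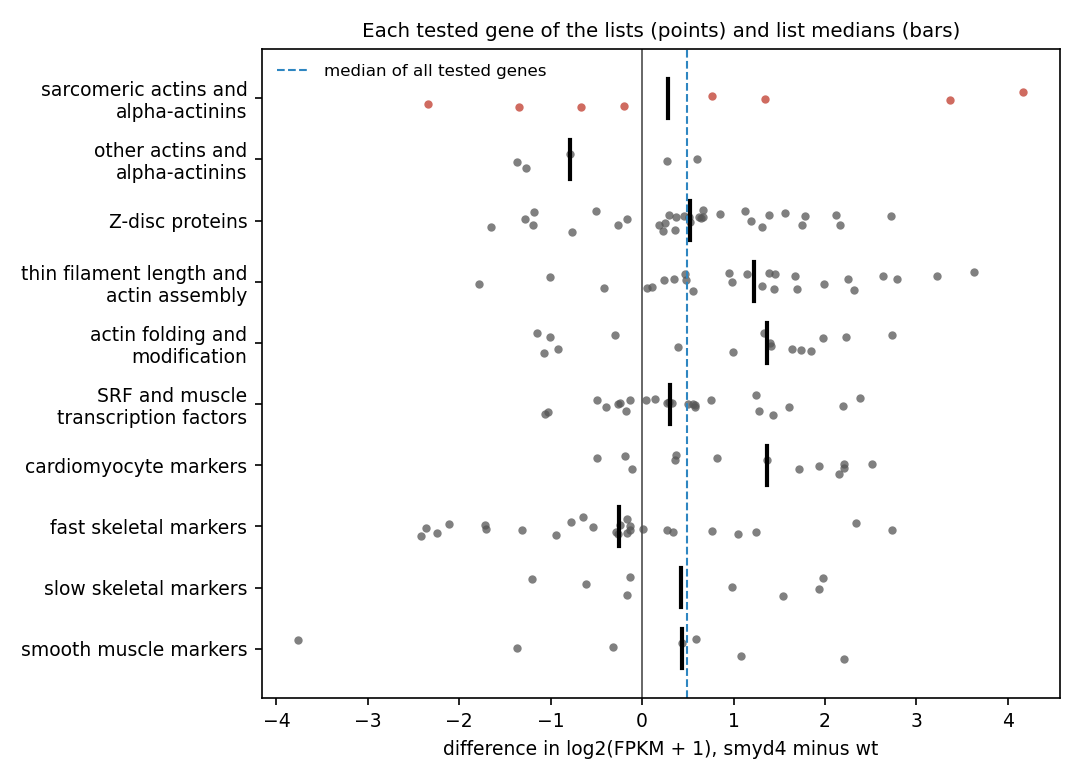
Difference in log2(FPKM + 1), library labelled mutant (smyd4) minus wild type (wt), of the tested genes of each list (points) with the median of each list (black bar) and of all tested genes (dashed line, 0.49). The 8 sarcomeric actins and α-actinins (red) spread from -2.34 to 4.17, the cardiomyocyte markers lie mostly to the right of the dashed line and the fast skeletal markers mostly to its left.

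New actin chains are folded by prefoldin and the chaperonin CCT and are then modified. Of 16 tested genes of this kind 9 were called higher and 3 lower, with a median of 1.37 (6 and 4 genes under TMM scaling, median 0.89). For all tested genes the shares were 33.3% higher and 11.6% lower (21.2% and 19.3% under TMM scaling). With per-million scaling 10 genes of the list were higher and 0 lower, so the lower calls depend on the scaling. The largest differences were those of the prefoldin subunit *pfdn2* (185 FPKM in the library labelled mutant and 27.1 FPKM in wild type), the chaperonin subunit *cct3* (650.5 FPKM labelled mutant and 137.9 FPKM wild type) and *setd3* (18.8 FPKM labelled mutant and 4.05 FPKM wild type), whose mammalian protein methylates a histidine of actin. The subunits of one chaperonin were not uniform, since *tcp1* was at 177 FPKM in the library labelled mutant and 394.3 FPKM in wild type, and *cct4* at 482.4 FPKM in the library labelled mutant and 1014 FPKM in wild type.

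SRF, with its cofactors of the MRTF family, is the best known activator of muscle actin genes. Of 24 tested genes of a list of SRF and muscle transcription factors, 6 were called higher and 2 lower. The shares over all tested genes were 33.3% and 11.6%. The list median of 0.31 turned negative with upper-quartile (-0.23), median-of-ratios (-0.08) and TMM scaling (-0.07). The median of all tested genes was then -0.15, 0.04 and 0.04. The *srf* copies did not pass the threshold, with 7.70 FPKM in the library labelled mutant and 4.18 FPKM in wild type for ENSDARG00000102867 and 1.23 FPKM in the library labelled mutant and 1.65 FPKM in wild type for ENSDARG00000053918. The largest differences were those of *hand2*, a regulator of ventricular development (267.9 FPKM in the library labelled mutant and 50.4 FPKM in wild type), of the skeletal muscle determination factor *myod1* (44.9 FPKM labelled mutant and 9.05 FPKM wild type) and of *tead3* (ENSDARG00000063649, 22.2 FPKM labelled mutant and 6.61 FPKM wild type). The skeletal factor *myod1* was thus higher in the library in which the fast skeletal markers summed to less.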

How the data were processed

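RNA-seq of zebrafish hearts at 72 hpf gave 1 library labelled mutant and 1 wild-type library. The values deposited by the authors are FPKM, a unit recognized from the values themselves, and no further scaling between libraries was found in them. The submitters' processing notes name TopHat2 2.0.9 and Bowtie2 2.0.6. The genome build, the annotation and the counting rule are not given in the sources used here, so no coordinates are printed. Reads of close paralogs, such as the actin copies, could have been divided between them or lost, depending on that rule. No column of another sample was used.

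Differences were computed on log2(FPKM + 1), leaving out genes below 1 FPKM in both libraries, with a threshold of 1. Library totals were the smallest multiple of the ratio found in the FPKM values that was not below the summed reads. The recovered reads are the smallest whole numbers that give a gene's values with a whole length, so the true number can be a multiple of them and the intervals can be too wide. The length found for *actc1b*, 428 bases, is shorter than an actin coding region, so its reads may be such a fraction. Those found for *actc1c* (1047 bases) and *acta1a* (1085 bases) are slightly below it too, so the same may hold for their reads. The recovered reads summed to 91.0% of the total in the library labelled mutant and 91.5% in wild type. Reads were simulated for 25415 genes with 200 genes changed 4-fold, taking the recovered lengths as true. Of the genes above 0 in both libraries, 85.6% had exact read numbers, and 99.5% of the changed genes passed the threshold in the right direction. The changed genes were drawn from well-counted ones and only counting error was simulated, so a high share was built in. It says nothing about the spread between replicates.

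Gene names came from a table that matched 26433 identifiers. A listed name with no match was looked up as its capital symbol and then without its paralog suffix, and such genes are printed in lower case. All identifiers of a shared symbol were taken. A list can therefore hold copies it did not name, such as those of *ttn* and *slc8a1* among the cardiomyocyte markers. The members, the 5 lists of related genes and the 11 lists of markers were chosen with earlier results of these data known. The genes named are the members, *smyd4*, *myl7*, for each list of related genes or muscle markers up to 3 genes past the threshold, taken by the size of the difference among those reaching 10 FPKM, the nearest gene of each member by level and the closest matched genes on either side of it. Others (*acte1*, the bare *actc1* identifier, *actb1*, *actn1*, *actn4*, the *srf* copies, and *capza1a*, *capzb*, *tmod1*, *pfn1*, *tcp1*, *cct4*, *fhl2* and the second *myoz2*) were chosen after their values were seen. So were *atp2a2a*, *nppb*, *myh6*, *hbae3* and *krt4*. A planned comparison of protein and promoter sequences was not made, as no sequence was used here. The alternatives were TMM (trims of 30% and 5%), median-of-ratios, upper-quartile and per-million scaling, a pseudocount of 0.1, 2 other filters and a threshold of 2. The ratio of *smyd4* and the medians of the lists under other scalings, and the wider pool of actins, were added after seeing the data. Python 3.11.15, numpy 2.4.6, pandas 2.3.3, scipy 1.17.1 and matplotlib 3.10.9 were used.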

Additional observations from a re-analysis of the deposited data

How the results depend on the processing

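The direction of *actc1a*, *actc1b*, *actc1c*, *acta1a*, *acta1b*, *actn2b* and *actn3a* was kept under the 4 other scalings and with a pseudocount of 0.1 FPKM, and that of *actn3b* turned under per-million scaling only (0.01). The difference ranged from -2.07 to -1.12 for *actc1a*, from -3.07 to -2.12 for *actc1b*, from 3.50 to 4.40 for *actc1c*, from 0.04 to 0.99 for *acta1a*, from -1.40 to -0.45 for *acta1b*, from 2.65 to 3.58 for *actn2b*, from 0.65 to 1.55 for *actn3a* and from -0.89 to 0.01 for *actn3b*. With a threshold of 2, 1 gene was lower (*actc1b*), against 2.31% of all tested genes, and *actc1c* and *actn2b* were higher, against 8.79%. Of 32 counts of higher or lower genes in the lists, 22 were within 1.5 times under TMM scaling and 10 were not. The fast skeletal markers went to 2 higher and 11 lower genes and the cardiomyocyte markers to 6 higher and 1 lower. In recovered reads, *actc1b* held 8.29% of the actins in the library labelled mutant and 19.9% in wild type, lower shares than in FPKM. *actc1a* held 51.4% in the library labelled mutant and 61.5% in wild type. These read shares are off if the recovered reads of *actc1b* are a fraction of the true number. No paired analysis was possible because each group has 1 library, and leaving out a library leaves no comparison. Depth limits *actc1c* in wild type most among the 8 genes (94 reads), and the spread between replicates is unknown.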

Other observations

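The levels in the libraries place each gene beside others. With distance taken on log2(FPKM + 1) in the 2 libraries, the nearest gene with a symbol to *actc1b* was *myl1* (ENSDARG00000017441), a fast skeletal myosin light chain at 758.7 FPKM in the library labelled mutant and 3593 FPKM in wild type (distance 0.27). For *actc1a* it was the tubulin *tubb4b* (1425 FPKM labelled mutant and 4277 FPKM wild type, distance 0.24). For *actn2b* it was *fkbp9* (200.8 FPKM labelled mutant and 17.5 FPKM wild type, distance 0.07) and for *actc1c* *tram1* (89.5 FPKM labelled mutant and 7.52 FPKM wild type, distance 0.60), both of them genes of the endoplasmic reticulum. The nearest genes to *acta1a*, *acta1b*, *actn3a* and *actn3b* were *mt-nd2*, *pabpc1a*, *tmed5* and *actr8*. With 2 libraries, likeness of this kind is weak for genes of moderate level, as 121 genes lay within 0.25 of *actn3a* and 73 of *actn3b*, against 0 for *actc1b* and for *actc1c*, 1 for *actc1a*, 4 for *acta1a* and 5 each for *acta1b* and *actn2b*.

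On the RefSeq assembly GRCz12tu, the closest gene on each side that could be matched by a unique name to the deposited table was taken for the 7 members found there. Between 0 and 5 genes without such a match were passed over on a side. On the sides of *actc1b*, *arhgap11a* differed by 2.82 (31.8 FPKM in the library labelled mutant and 3.64 FPKM in wild type) and *eif2ak4* by -0.77, against -2.34 for *actc1b*. Around *actn2b*, *ecd* differed by 0.72 and *fmn2a* was under 1 FPKM in both libraries. Around *actn3a*, *slc29a2* differed by 1.08 and *rbm14a* by 0.09, and around *actn3b* *rbm14b* differed by -1.28 while *gal3st3* was under 1 FPKM in both libraries. The matched genes around *actc1a* were *fmn1* (-0.80) and *taf1b* (0.84), those of *acta1a* were *nup133* (-0.43) and *triobpa* (0.32), and those of *acta1b* were *abcb10* (0.81) and *rab4a* (1.097).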
